A study of Mus musculus with 40 samples.

Results

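The genes described here were the 4 Notch receptors (Notch1, Notch2, Notch3 and Notch4), 3 of their ligands (Jag1, Jag2 and Dll1) and the 3 fringe genes (Lfng, Mfng and Rfng). They were taken by symbol from the deposited count table, where all 10 were found among 40853 genes, and all 10 passed the filter on low counts that left 28449 genes for testing. RNA-seq had been run on hippocampal tissue of 40 mice, in 10 groups of sex and virus with 3 to 5 mice each and 1 library per mouse. Per the methods of the study, all mice carried floxed copies of both genes for the histone variant H2A.Z (H2A.Z.1 and H2A.Z.2) and received adeno-associated virus by injection into the hippocampus, although the labels give the genotype of the Myc groups as WT. Myc mice received virus for the Myc tag alone and no Cre. KD mice (labelled H2A.Z.1/H2A.Z.2 KD) received Cre under the synapsin promoter, which is active in neurons, together with the Myc tag. KD+WT, KD+KA and KD+KQ mice received the same Cre virus with Myc-tagged H2A.Z.1 under the CMV promoter, which is not restricted to neurons, in its wild-type form (WT), with the acetylated lysines of its tail changed to alanine (KA, acetyl-defective) or with the same lysines changed to glutamine (KQ, acetyl-mimic). Females numbered 3 Myc, 4 KD, 4 KD+WT, 4 KD+KA and 3 KD+KQ, and males 4 Myc, 4 KD, 5 KD+WT, 4 KD+KA and 5 KD+KQ. Ages are not given in the labels used here. Mice are named below by the sample number of their label.

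Notch receptors are cell-surface proteins that respond to ligands of the Jagged and Delta families on neighbouring cells. Ligand binding exposes the receptor to cleavage, first by an ADAM protease and then by gamma-secretase, and the freed intracellular domain joins the DNA-binding protein Rbpj and a Mastermind coactivator to switch on target genes such as those of the Hes and Hey families. Fringe proteins are Golgi enzymes that extend the fucose sugars on the receptor and so change which ligands it answers to. In the adult hippocampus the pathway is known for holding neural stem cells of the dentate gyrus in reserve and for a part in synaptic plasticity, Notch3 is a receptor of vascular mural cells, and Notch4 is mainly a receptor of endothelium.

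Promoters are shown for Notch1, Notch2 and Lfng, which were higher in KD mice of both sexes, and for Rfng, which was lower, since these calls passed under all alternatives run. Mfng, which did so too, had no entry, and Dll1 is not shown because its calls did not. Each sequence is the 250 bases before the transcription start, 5′ to 3′ on the strand of the gene, from RefSeq on build GRCm38.p6, and 9 of the 10 genes had an entry there. Capitals mark TGGGAA, the core sequence that Rbpj binds, or its reverse complement TTCCCA.

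Notch1, chr2:26503823-26504072, minus strand: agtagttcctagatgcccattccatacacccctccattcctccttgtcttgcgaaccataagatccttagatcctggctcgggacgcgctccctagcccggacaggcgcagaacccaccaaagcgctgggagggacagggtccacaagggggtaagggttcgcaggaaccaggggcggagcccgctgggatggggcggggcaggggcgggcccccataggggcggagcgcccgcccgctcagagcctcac

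Notch2, chr3:98013288-98013537, plus strand: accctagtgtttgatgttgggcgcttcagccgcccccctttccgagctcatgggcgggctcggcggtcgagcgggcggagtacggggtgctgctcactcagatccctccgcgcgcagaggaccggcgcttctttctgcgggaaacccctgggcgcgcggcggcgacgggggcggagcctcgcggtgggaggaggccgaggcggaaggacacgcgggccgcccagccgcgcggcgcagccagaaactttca

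Lfng, chr5:140607091-140607340, plus strand: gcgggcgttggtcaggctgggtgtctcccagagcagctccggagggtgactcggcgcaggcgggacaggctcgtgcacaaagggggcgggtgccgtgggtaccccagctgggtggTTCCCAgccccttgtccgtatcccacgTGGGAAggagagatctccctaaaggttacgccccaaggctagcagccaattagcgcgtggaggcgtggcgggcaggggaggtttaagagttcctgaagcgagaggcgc

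Rfng, chr11:120784205-120784454, minus strand: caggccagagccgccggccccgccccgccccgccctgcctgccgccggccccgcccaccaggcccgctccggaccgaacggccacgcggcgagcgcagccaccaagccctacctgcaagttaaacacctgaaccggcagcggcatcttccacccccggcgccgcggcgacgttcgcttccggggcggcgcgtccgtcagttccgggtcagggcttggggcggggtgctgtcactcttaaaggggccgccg

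Among the 9 genes with an entry, the core sequence was found in Lfng alone, at 2 places, from 130 to 135 and from 103 to 108 bases before the start. Of 32841 promoters of the same length, 21.6% held it on either strand. A match of these 6 letters is a description of the window and no evidence of binding. The Notch2 and Rfng windows held 34 CpG dinucleotides each, Lfng 18 and Notch1 16, against a median of 6 over all promoters. Of the members not shown, Jag2 held 54, Jag1 20, Notch3 17, Notch4 4 and Dll1 21 and 13 in its 2 entries.

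On GRCm39 (GENCODE M39) Notch1 and Jag1 lie on chromosome 2, at chr2:26347915-26406675 and chr2:136923373-136958693, both on the minus strand. Notch2 lies at chr3:97920800-98057677 on the plus strand. Chromosome 17 holds Dll1 (chr17:15587276-15597134, minus), Notch3 (chr17:32339794-32385893, minus) and Notch4 (chr17:34783220-34807477, plus). Jag2 lies at chr12:112871421-112893437 (minus). The fringe genes are on separate chromosomes, Lfng at chr5:140593075-140601300 (plus), Mfng at chr15:78640074-78657718 (minus) and Rfng at chr11:120671370-120675329 (minus).

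Read totals ran from 24342921 to 45982772 counts per library, and the count behind a gene ran from 36 to 326 for Mfng, the lowest minimum, and from 861 to 1919 for Rfng, the highest minimum. Levels are given as CPM, counts scaled to a common library size with TMM. The genes that Cre was meant to delete were not called lower in KD mice in these counts. H2az1 (H2A.Z.1) stood at 32.2 ± 3.58 CPM (SD, n = 3) in Myc and 31.0 ± 3.67 (n = 4) in KD females, and at 32.8 ± 4.38 (n = 4) and 31.5 ± 9.37 (n = 4) in males, with adjusted p = 0.828 and 0.841. H2az2 (H2A.Z.2) stood at 23.2 ± 3.42 and 28.1 ± 1.55 CPM in females and at 23.2 ± 2.50 and 25.5 ± 4.13 in males, with adjusted p = 0.0609 and 0.35, and DESeq2 called it higher in females (adjusted p = 0.0339). These counts cover whole genes in bulk tissue, so they do not check a deletion in neurons. The study itself reported lower mRNA of H2A.Z.1 after Cre without replacement, and lower mRNA of H2A.Z.2 in all groups with Cre. Those drops were also seen in bulk tissue. The study called them small and proposed low sensitivity there to a loss in neurons alone as the likely reason. In cultured hippocampal neurons given Cre it reported a strong loss of H2A.Z. The reason why the counts here differ from those reports was not tested. Groups are named as labelled, and KD means the mice labelled so throughout. The other groups with Cre had mean H2az1 levels from 37.4 to 42.0 CPM, and counts there can include reads of the Myc-tagged copy. High levels of Ttr, a choroid plexus transcript, marked 4 female mice (14 and 33 of KD, 20 of KD+WT and 17 of KD+KQ), all above 1000 CPM.

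Between genes, levels can be compared only per length of transcript. Per kilobase of exon (annotated exons of GENCODE M39 on GRCm39), the order in Myc mice was the same in both sexes, from Notch4 with a mean of 0.575 CPM per kb in females and 0.474 in males, through Mfng (0.637 and 0.717), Notch1 (0.730 and 0.786), Notch3 (0.871 and 0.912), Dll1 (1.04 and 0.927), Notch2 (1.55 and 1.77), Jag1 (1.77 and 1.91), Jag2 (3.64 and 3.60) and Lfng (4.32 and 4.6), to Rfng (14.2 and 15.0). Rfng stood apart, since its lowest Myc mouse had 13.3 CPM per kb and the highest Lfng value was 4.9. Among the lower genes the neighbours overlapped between mice: Mfng ran from 0.420 to 0.861, Notch1 from 0.550 to 0.918, Notch3 from 0.781 to 1.06 and Dll1 from 0.716 to 1.13 CPM per kb over the Myc mice of both sexes. Notch2 (1.36 to 2.06) and Jag1 (1.54 to 2.16) overlapped each other as well. Jag2 and Lfng overlapped in females (3.28 to 4.2 and 3.9 to 4.61) and not in males (3.24 to 4.03 and 4.32 to 4.9).

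**Figure D1:**
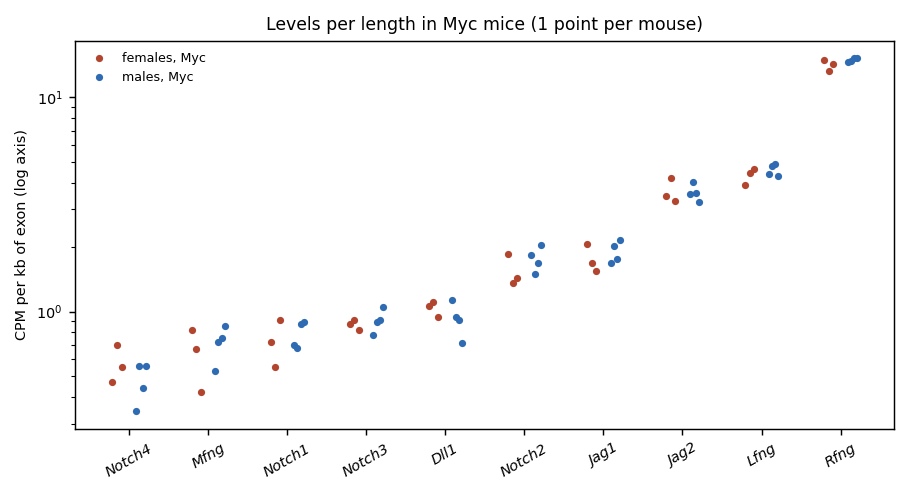
Level per length of each gene in the Myc mice, in CPM per kb of exon on a log axis, with 1 point per mouse (3 females, 4 males) and genes in the order of the male means. Rfng lies above all other genes at a mean of 14.2 in females and 15.0 in males, and Notch4 has the lowest mean in both sexes.

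The first comparison asked how these genes stood after Cre. In females, 6 of the 10 were higher and 2 lower in KD than in Myc mice at an adjusted p under 0.05 (edgeR quasi-likelihood test, Benjamini-Hochberg over all genes tested), where 34.6% of all genes tested passed (18.1% higher, 16.5% lower). In males 4 were higher and 3 lower, against 31.6% of all genes (17.2% higher, 14.4% lower). Notch1, Notch2, Lfng and Mfng rose in both sexes, Notch3 and Jag1 rose in females, Rfng and Dll1 fell in both sexes, and Jag2 fell in males. Notch4 passed in neither sex. On the log2 scale differences are those of fitted group means (log2 fold changes). The median log2 fold change over the 10 genes was 0.66 in females and 0.28 in males, against 0.0030 and 0.027 over all genes tested.

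**Figure D2:**
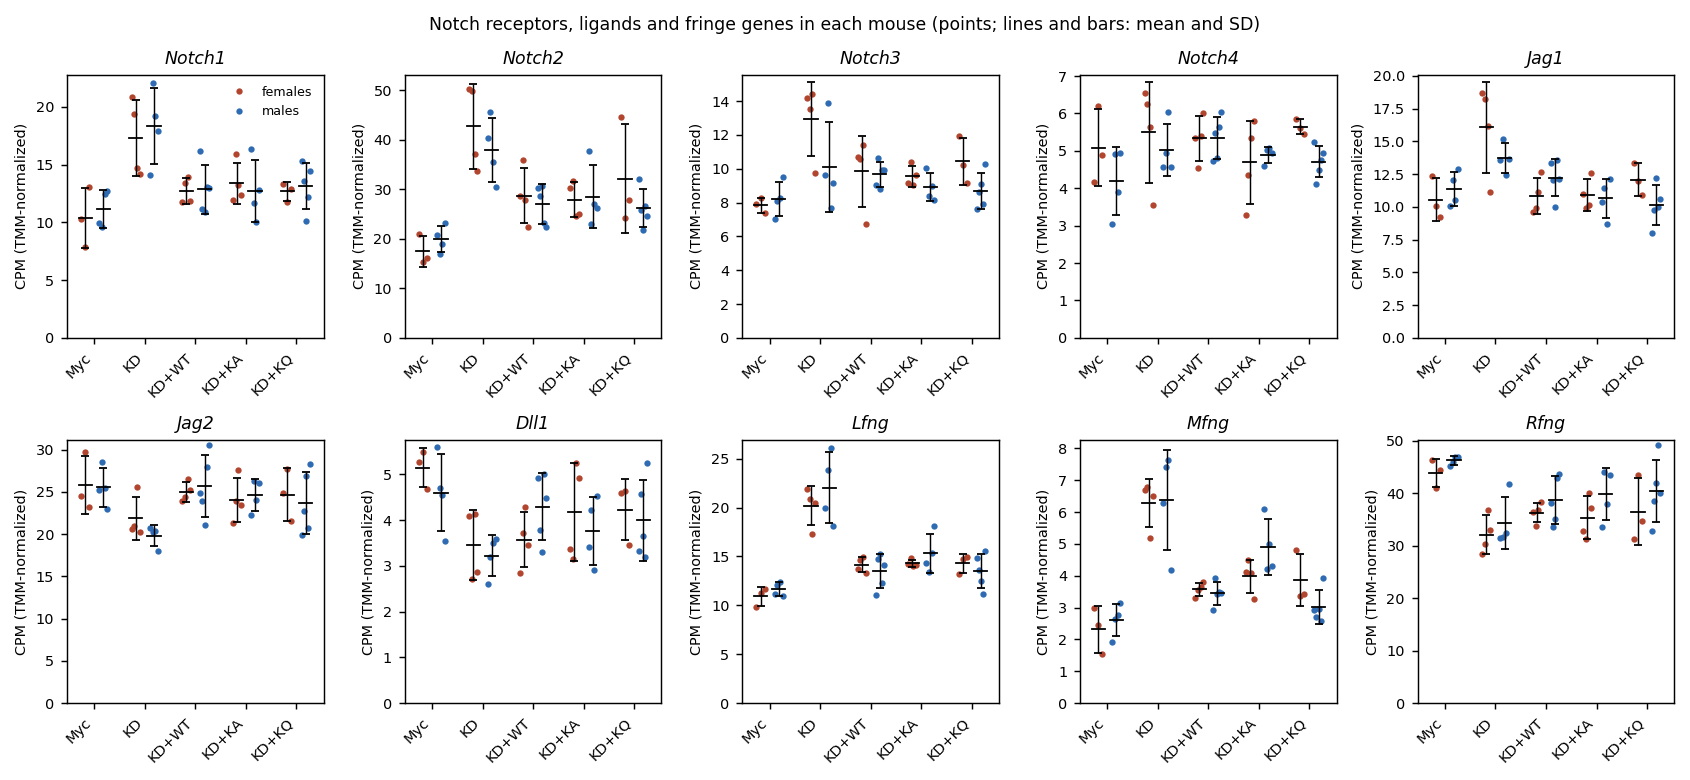
CPM of each gene (1 panel per gene, each with its own axis from 0) in every mouse by group, females in red and males in blue, with the mean and SD as black lines and bars. Lfng and Mfng show KD mice of both sexes above all Myc mice. Their replacement groups lie between KD and Myc or near Myc, except for Mfng in male KD+KA mice, which overlap the KD mice. Rfng shows the opposite order for KD and Myc.

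Among the receptors, Notch2 changed most. In females it was at 21.0, 15.3 and 16.1 CPM in the Myc mice and at 50.3, 49.8, 37.2 and 33.7 CPM in the KD mice, so that no KD mouse reached down to a Myc mouse. The log2 difference was 1.29 (SE 0.20, adjusted p = 5.51e-06), a 2.44-fold rise. In males Notch2 was at 20.8, 16.9, 18.9 and 23.2 CPM in Myc and at 40.3, 45.6, 35.5 and 30.5 CPM in KD mice, again without overlap, with a log2 difference of 0.93 (SE 0.18, adjusted p = 0.000109).

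Notch1, the receptor most studied in neural stem cells, moved the same way with smaller steps. Female Myc mice had 10.3, 7.83 and 13.1 CPM and female KD mice 20.8, 19.4, 14.7 and 14.2, all above the highest Myc mouse, for a log2 difference of 0.74 (SE 0.18, adjusted p = 0.00124). Male Myc mice had 9.95, 9.58, 12.5 and 12.7 CPM and male KD mice 14.1, 22.1, 19.2 and 17.9, also without overlap, for 0.71 (SE 0.16, adjusted p = 0.000661). In fold the rise was 1.67 in females and 1.64 in males.

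Notch3 was at 7.90, 8.26 and 7.37 CPM in Myc and at 14.2, 13.5, 14.4 and 9.73 in KD females, again all above, and rose by 0.72 on the log2 scale (SE 0.16, adjusted p = 0.000693). In males the groups overlapped, with 7.04, 8.06, 8.24 and 9.51 CPM in Myc and 9.62, 13.9, 7.67 and 9.16 in KD mice, and a log2 difference of 0.30 (SE 0.15, adjusted p = 0.134). Without male KD mouse 21, the lowest of its group, the adjusted p was 0.0399. Notch4 overlapped in both sexes, with 4.16 to 6.21 CPM in Myc and 3.54 to 6.54 in KD females and 3.04 to 4.94 and 4.57 to 6.03 in males. Its log2 fold changes were 0.12 (95% interval -0.26 to 0.49) and 0.26 (-0.08 to 0.61), with adjusted p = 0.671 and 0.261.

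The ligands did not move together. Jag1 was at 12.4, 10.1 and 9.20 CPM in Myc and at 18.7, 18.3, 16.2 and 11.2 in KD females, where mouse 34 lay within the Myc range and the other 3 above it, and rose by 0.60 on the log2 scale (SE 0.15, adjusted p = 0.00203). In males Jag1 was at 10.1, 12, 10.5 and 12.9 CPM in Myc and 13.6, 15.2, 12.4 and 13.7 in KD mice, with a log2 difference of 0.27 (SE 0.14, adjusted p = 0.143). Male KD mouse 21 was the only KD mouse of that sex within the Myc range.

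Jag2, the other Jagged ligand, leaned the opposite way. In males it fell from 25.2, 28.6, 25.4 and 23.0 CPM in Myc to 20.7, 20.2, 20.4 and 18 in KD mice, with every KD mouse below every Myc mouse, at a log2 difference of -0.36 (SE 0.11, adjusted p = 0.0119). Without male Myc mouse 22, the highest, the adjusted p was 0.0555. In females it was at 24.5, 29.8 and 23.2 CPM in Myc and 20.6, 21.0, 25.6 and 20.2 in KD mice, and -0.24 on the log2 scale (SE 0.12, adjusted p = 0.125). Here 3 of the 4 KD mice were below the Myc mice and mouse 33 was above 2 of them, and without mouse 33 the adjusted p was 0.0436.

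Dll1, a Delta ligand and the lowest of the ligands per length, was at 5.27, 5.50 and 4.68 CPM in Myc and 4.09, 2.72, 4.13 and 2.86 in KD females, all below, with a log2 difference of -0.58 (SE 0.21, adjusted p = 0.0302). In males it was at 5.6, 4.70, 4.55 and 3.55 CPM in Myc and 2.60, 3.19, 3.51 and 3.59 in KD mice, where Myc mouse 41 was just under the highest KD mouse, with -0.52 (SE 0.20, adjusted p = 0.0421). Both calls were close to the threshold and were lost without any 1 of several mice. Over all alternatives run, the log2 fold change ran from -0.68 to -0.48 in females and from -0.62 to -0.41 in males. Leaving out female Myc mouse 11 (0.0752) or 31 (0.0932), or female KD mouse 14 (0.108) or 34 (0.0847), took the female adjusted p above 0.05. The male value passed 0.05 without Myc mouse 1 (0.155), 22 (0.0753) or 23 (0.0658) or KD mouse 3 (0.138) or 4 (0.0811), and without the mice above 1000 CPM of Ttr the female value was 0.103.

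The fringe genes split by member, with Lfng and Mfng higher and Rfng lower in KD mice of both sexes. Mfng had the largest log2 fold change of the 10 genes in each sex. It was at 3.00, 2.45 and 1.53 CPM in Myc and 6.68, 6.78, 5.18 and 6.51 in KD females, a log2 difference of 1.42 (SE 0.21, adjusted p = 1.98e-06) and a 2.68-fold rise. In males it was at 1.94, 2.63, 2.76 and 3.14 CPM in Myc and 6.27, 7.42, 7.62 and 4.19 in KD mice, a log2 difference of 1.29 (SE 0.19, adjusted p = 1.1e-06). The groups did not overlap in either sex.

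Lfng, which in other tissues is known for its rhythmic use in the segmentation of the embryo, was at 9.86, 11.2 and 11.7 CPM in Myc and 21.9, 20.9, 17.3 and 20.5 in KD females (log2 fold change 0.89, SE 0.12, adjusted p = 8.04e-07). In males it was at 11.2, 12.1, 12.4 and 10.9 CPM in Myc and 20.0, 23.8, 26.1 and 18.1 in KD mice (0.92, SE 0.11, adjusted p = 3.54e-08). Its Myc mice lay close together in both sexes and its KD mice all lay above them. Rfng was at 46.4, 41.1 and 44.4 CPM in Myc and 28.5, 30.3, 36.9 and 32.9 in KD females (-0.45, SE 0.12, adjusted p = 0.00362). In males it was at 45.2, 45.9, 47.0 and 46.9 CPM in Myc and 31.5, 31.7, 32.4 and 41.7 in KD mice (-0.43, SE 0.11, adjusted p = 0.00301). All KD mice were below all Myc mice, and male KD mouse 42 lay nearest to the Myc level.

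**Figure D3:**
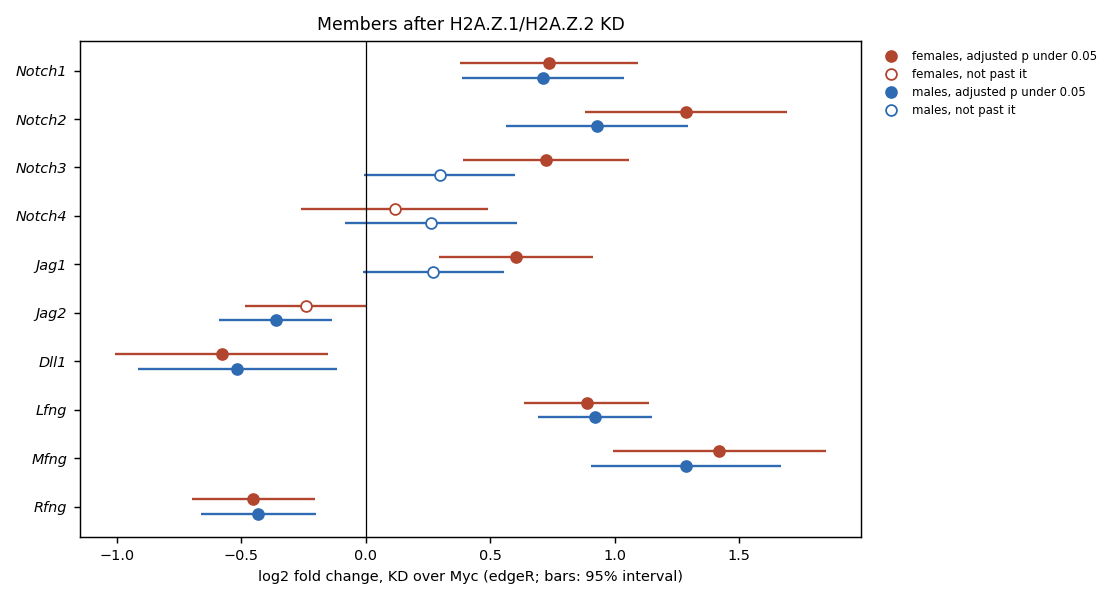
Log2 fold change of KD over Myc for each gene in females (red) and males (blue) with its 95% interval, filled where the adjusted p was under 0.05. Mfng is farthest to the right at 1.42 in females and 1.29 in males, Rfng, Dll1 and Jag2 lie left of 0, and only Notch4 is open in both sexes.

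In bulk tissue, fewer cells of a type and less RNA per cell cannot be told apart, and markers of several cell types moved between the same groups. All 7 microglia and macrophage markers were higher in KD mice of both sexes, with a summed level of 255 to 348 CPM in Myc and 678 to 1138 in KD females and of 240 to 321 and 735 to 1264 in males. All 6 neuronal markers were lower, with a sum of 6438 to 6606 CPM in Myc and 2484 to 4463 in KD females and of 6332 to 6779 and 3034 to 4895 in males. Of 8 endothelial markers, 6 were higher in females and 4 in males, with sums of 131 to 156 and 144 to 242 CPM in females and of 125 to 150 and 162 to 189 in males. Of 8 mural cell markers, 6 were higher in females and 1 in males, with sums of 204 to 265 and 190 to 359 CPM and of 182 to 300 and 196 to 301. Also higher in both sexes were 5 of 7 astrocyte, 5 of 5 T cell, 3 of 3 B cell and 3 of 4 fibroblast markers, 4 of 7 oligodendrocyte markers in females and 2 in males, and 7 of 8 choroid plexus markers in females and 0 in males. Of ependymal markers 1 of 3 and of neural stem cell markers 2 of 3 were higher in each sex, and of 5 markers of hippocampal neuron types 2 were lower in females and 1 in males. Of all genes tested, 18.1% were higher and 16.5% lower in females, and 17.2% and 14.4% in males. A count of 1 in such a short list says little beside these shares. Summed T cell markers ran from 0.356 to 2.51 CPM in Myc and from 12.7 to 85.3 in KD females. In males they ran from 0.264 to 0.804 and from 32.2 to 123. Neuronal markers were present in all groups, and no marker in these lists was at 0 in all mice of a group. The part of cell make-up in the changes of the Notch genes was not tested.

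The difference between the sexes in the response was tested as an interaction, and 0 of the 10 genes passed, in edgeR or DESeq2, with 0 at an unadjusted p under 0.05. Over all genes tested, 0 passed in edgeR (0%), with 1569 at an unadjusted p under 0.05, while DESeq2 called 30. The largest difference of the 10 was that of Notch3, whose log2 fold change was 0.43 higher in females (SE 0.22, 95% interval -0.02 to 0.87, adjusted p = 0.917). That of Jag1 was 0.33 higher (-0.08 to 0.75) and that of Notch2 0.36 higher (-0.18 to 0.89). A call in 1 sex alone, as for Notch3, Jag1 and Jag2, is thus not shown to be a difference between the sexes. Between Myc females and Myc males 0 of the 10 passed in either tool, where 0.0457% of all genes passed in edgeR. At an unadjusted p under 0.05 there were 0 of the 10 and 1525 of all genes, and log2 differences ran from -0.19 for Notch2 to 0.27 for Notch4.

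The second comparison asked whether H2A.Z.1, in any of its forms, moved these genes from their level in KD mice. The genes that moved were in the main those that had risen. In females, KD+WT mice were lower than KD mice for 4 of the 10 (Notch2, Jag1, Lfng and Mfng), where 14.5% of all genes passed (5.36% higher, 9.17% lower). KD+KA mice were lower for 5 (these 4 and Notch3), against 15.3% (5.63% higher, 9.62% lower), and KD+KQ mice for 2 (Lfng and Mfng), against 13% (5.36% higher, 7.63% lower). In males, KD+WT mice were lower for 4 (Notch1, Notch2, Lfng and Mfng) and higher for 1 (Jag2), against 19.5% of all genes (7.44% higher, 12% lower). KD+KA males were lower for 2 (Notch1 and Lfng), against 15.8% (5.86% higher, 9.94% lower), and KD+KQ males for 5 (Notch1, Notch2, Jag1, Lfng and Mfng), against 21.4% (8.72% higher, 12.7% lower). Since these comparisons share the KD mice, they are not independent of each other or of KD against Myc. Beside them, the summed microglia markers ran from 468 to 579 CPM with WT, 425 to 709 with KA and 436 to 626 with KQ in females and from 422 to 550, 470 to 682 and 385 to 556 in males, and the summed neuronal markers from 4157 to 5140, 3982 to 5410 and 3817 to 5168 CPM in females and from 4986 to 5649, 4335 to 5686 and 5056 to 6333 in males. Against KD, 6 or 7 of 7 microglia markers, 5 of 5 T cell, 3 of 3 B cell and 3 or 4 of 7 astrocyte markers were lower in each of the 6 comparisons, and 2 to 5 of 6 neuronal markers were higher. Of the astrocyte markers, 1 was higher in KD+WT males and 1 in KD+KQ males. Of 8 endothelial markers 0 to 3, of 8 mural cell markers 0 to 3 and of 4 fibroblast markers 0 to 3 were lower. The part of these cell types in the result was not tested.

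Lfng was lower in all 6 of these comparisons. In females it was at 13.7, 14.7, 14.9 and 13.3 CPM in KD+WT, 14.2, 14.8, 14.0 and 14.2 in KD+KA, and 13.2, 14.7 and 15.0 in KD+KQ mice. All of these lay below the lowest KD female (17.3) and above the highest Myc female (11.7). The log2 fold change against KD was -0.51 (SE 0.11, adjusted p = 0.0016) with WT, -0.50 (SE 0.11, adjusted p = 0.00246) with KA and -0.50 (SE 0.12, adjusted p = 0.00574) with KQ. In males Lfng was at 11.1, 14.8, 15.3, 12.3 and 14.1 CPM in KD+WT, at 14.4, 13.5, 15.4 and 18.1 in KD+KA and at 14.8, 13.6, 12.5, 11.2 and 15.6 in KD+KQ mice. None of them reached the lowest male KD mouse (mouse 42, level with KD+KA mouse 43 to the digits given), with log2 fold changes of -0.71 (adjusted p = 5.2e-06), -0.53 (adjusted p = 0.000951) and -0.70 (adjusted p = 5.4e-06).

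Mfng was lower than in KD mice in 5 of the 6 comparisons. In females it was at 3.30, 3.54, 3.65 and 3.81 CPM in KD+WT, 4.11, 4.49, 4.09 and 3.27 in KD+KA, and 4.8, 3.36 and 3.43 in KD+KQ mice, all below the KD females. The log2 fold changes were -0.82 (SE 0.19, adjusted p = 0.00223), -0.66 (SE 0.19, adjusted p = 0.0128) and -0.70 (SE 0.20, adjusted p = 0.017). In males it was at 2.93, 3.93, 3.43, 3.49 and 3.47 CPM in KD+WT and 2.94, 2.71, 2.97, 2.59 and 3.94 in KD+KQ mice, all below the KD mice, with -0.89 (SE 0.17, adjusted p = 0.00022) and -1.08 (SE 0.18, adjusted p = 1.79e-05). Male KD+KA mice, at 6.10, 4.21, 5.01 and 4.31 CPM, overlapped the KD mice, and their log2 fold change was -0.38 (SE 0.18, adjusted p = 0.163). Without male KD mouse 42, the lowest KD mouse, that adjusted p was 0.0410. The female call with KA was lost without KD+KA mouse 36 (0.0653), and that with KQ without KD+KQ mouse 37 (0.123) or 38 (0.0991) or KD mouse 14 (0.05).

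Among the receptors, Notch2 was at 28.6, 36.0, 27.9 and 22.4 CPM in female KD+WT, at 30.2, 31.6, 24.6 and 25.1 in KD+KA and at 44.6, 24.1 and 27.7 in KD+KQ mice. KD+WT mouse 20 and KD+KQ mouse 17 lay within the KD range, and both are among the mice with much Ttr. The log2 fold changes against KD were -0.57 (SE 0.18, adjusted p = 0.025), -0.62 (SE 0.18, adjusted p = 0.016) and -0.41 (SE 0.19, adjusted p = 0.164), the last 0.0133 in adjusted p without mouse 17. In males Notch2 was at 30.3, 28.6, 30.7, 23.1 and 22.5 CPM in KD+WT, at 37.8, 23.0, 27.0 and 26.3 in KD+KA and at 32.1, 25.7, 21.7, 26.6 and 24.5 in KD+KQ mice. The log2 fold changes were -0.49 (SE 0.17, adjusted p = 0.0351), -0.41 (SE 0.18, adjusted p = 0.112) and -0.54 (SE 0.17, adjusted p = 0.0181). Each male replacement group overlapped the KD mice through its highest mouse. Calls of Notch2 in females were lost without KD mouse 13 (adjusted p 0.111 with WT, 0.0794 with KA), KD mouse 14 (0.102 and 0.0729), KD+WT mouse 19 (0.0524), 39 (0.0666) or 40 (0.106) or KD+KA mouse 35 (0.0631) or 36 (0.061). In males they were lost without KD mouse 4 (0.162 with WT, 0.104 with KQ) or 3 (0.0815 with WT), KD+WT mouse 30 (0.0907) or 46 (0.0921) or KD+KQ mouse 28 (0.0528), and the KA value was 0.0251 without KD+KA mouse 5. With the range of the sample number as a covariate, Notch2 also passed with KA in males (0.0413) and with KQ in females (0.037).

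Notch1 in males was at 16.2, 11.1, 10.9, 13.1 and 13.0 CPM in KD+WT, 16.3, 11.7, 10.0 and 12.8 in KD+KA and 15.3, 13.6, 10.2, 12.2 and 14.4 in KD+KQ mice. These overlapped KD mouse 3 (14.1) and lay below the other KD mice. The log2 fold changes were -0.51 (SE 0.15, adjusted p = 0.0135), -0.53 (SE 0.16, adjusted p = 0.0193) and -0.48 (SE 0.15, adjusted p = 0.0193). In females they ran from -0.45 to -0.37 with adjusted p from 0.0585 to 0.113, and the difference between the sexes in this step was not tested. The male calls were lost without KD mouse 4 (0.091, 0.103 and 0.122), and with KA without KD+KA mouse 25 (0.0646) or 26 (0.0955), or with KQ without KD+KQ mouse 28 (0.0673). The female value passed with WT without KD mouse 33 (0.034) or 34 (0.0313), and with KQ without the same mice (0.0486 and 0.0466).

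Notch3 passed against KD in female KD+KA mice alone, at 9.15, 10.4, 9.01 and 9.62 CPM and a log2 difference of -0.44 (SE 0.15, adjusted p = 0.0399). KD mouse 34 (9.73) lay within this range. This call was lost without any of KD mice 13 (0.131), 14 (0.102) and 33 (0.0922) and KD+KA mice 15 (0.0851), 35 (0.108) and 36 (0.0831), and without the mice above 1000 CPM of Ttr (0.271). With WT the adjusted p was 0.0709, and 0.0197 without KD mouse 34.

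Of the ligands, Jag1 was at 9.65, 9.89, 11.1 and 12.7 CPM in female KD+WT and 11.0, 9.94, 10.1 and 12.6 in KD+KA mice, where KD mouse 34 (11.2) overlapped both groups and the other KD mice lay above. The log2 fold changes were -0.57 (SE 0.14, adjusted p = 0.0041) and -0.56 (SE 0.14, adjusted p = 0.0056). Without the mice above 1000 CPM of Ttr the adjusted p was 0.128 and 0.0746. In males Jag1 was at 8.01, 9.75, 12.2, 9.99 and 10.6 CPM in KD+KQ mice, all below the KD mice, with -0.44 (SE 0.13, adjusted p = 0.0142, and 0.0688 without KD mouse 4). For KD+KQ females the log2 fold change was -0.41 (adjusted p = 0.065), which fell to 0.0101 without KD mouse 34 and to 0.0499 without KD+KQ mouse 17.

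Jag2 was the only one of the lowered genes to pass in the upward direction. Male KD+WT mice had 24.9, 23.9, 21.1, 28.0 and 30.5 CPM, all above the KD mice, and a log2 difference of 0.37 (SE 0.11, adjusted p = 0.0116, and 0.0521 without KD+WT mouse 46). With KA and KQ it was 0.31 and 0.26 (adjusted p = 0.0526 and 0.088), and these passed without KD+KA mouse 5 (0.0348) and KD+KQ mouse 8 (0.0391). Rfng stood between KD and Myc in all 6 group means, from 35.4 to 36.5 CPM in the female and from 38.7 to 40.5 in the male replacement groups, but its log2 fold changes against KD (0.14 to 0.24) had adjusted p from 0.113 to 0.459. The lowest, with KQ in males, was 0.0203 without KD mouse 42 and 0.0391 without KD+KQ mouse 8.

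Set against Myc instead, 2 or 3 of the 10 genes passed with each form in females and 0 or 2 in males. A gene that did not pass is not thereby shown to be back at the Myc level. In females, Notch2 was higher with WT (log2 fold change 0.72, SE 0.20, adjusted p = 0.0202), KA (0.67, SE 0.20, adjusted p = 0.0312) and KQ (0.88, SE 0.21, adjusted p = 0.0116). Lfng was higher with WT (0.38, SE 0.12, adjusted p = 0.0473) and KA (0.39, SE 0.12, adjusted p = 0.0447), and Mfng with KA (0.76, SE 0.21, adjusted p = 0.0197) and KQ (0.72, SE 0.22, adjusted p = 0.0451). That made 2, 3 and 2 genes of the 10. At an unadjusted p under 0.05 there were 5 of the 10 in each of these female comparisons. Of all 28449 genes tested there were 7102 with WT, 6377 with KA and 6069 with KQ. Of all genes, 9.38% passed with WT (5.87% higher, 3.52% lower), 7.65% with KA (4.42% higher, 3.23% lower) and 5.68% with KQ (3.59% higher, 2.08% lower). In males 0 of the 10 passed with WT, where 5.34% of all genes did (3.66% higher, 1.68% lower), and 0 with KQ, where 5.13% did (3.48% higher, 1.65% lower). With KA 2 passed, Lfng (0.40, SE 0.11, adjusted p = 0.0214) and Mfng (0.91, SE 0.19, adjusted p = 0.00138), against 7.89% of all genes (5.15% higher, 2.74% lower). At an unadjusted p under 0.05 there were 4 of the 10 with WT, 3 with KA and 1 with KQ in males. Of all 28449 genes tested there were 5359, 6193 and 5413. DESeq2 also called 0 of the 10 with WT and with KQ in males. With the range of the sample number as a covariate, however, Notch2 passed in males with WT (adjusted p = 0.0234), KA (0.00244) and KQ (0.0163), and with the compared groups alone Notch2 (0.0276) and Rfng (0.0397) passed with WT. DESeq2 called Notch2 with KA (0.0349).

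The female calls against Myc were close to the threshold, and each was lost when single mice were left out. For Notch2 these were Myc mice 31 (adjusted p 0.111 with WT, 0.155 with KA, 0.0715 with KQ) and 32 (0.0853, 0.121 and 0.0636), KD+WT mouse 20 (0.0916), KD+KA mice 15 (0.0785) and 16 (0.11) and KD+KQ mouse 17 (0.233). The Lfng call with KA was lost without any 1 of its 7 mice (0.0549 to 0.172), and with WT without any 1 but KD+WT mouse 40 (0.0714 to 0.184). The Mfng calls were lost without Myc mice 31 (0.0601 with KA, 0.106 with KQ) or 32 (0.161 and 0.24), KD+KA mouse 16 (0.0763) or KD+KQ mouse 17 (0.359). With WT, Mfng passed without Myc mouse 11 (0.0268) and Notch3 without KD+WT mouse 40 (0.0484). In males the call of Lfng with KA was lost without Myc mouse 1 (0.0711) or 41 (0.0722) or KD+KA mouse 43 (0.113), Notch2 with KA passed without KD+KA mouse 25 (0.0379), and Mfng with KA passed with any 1 mouse left out.

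**Figure D4:**
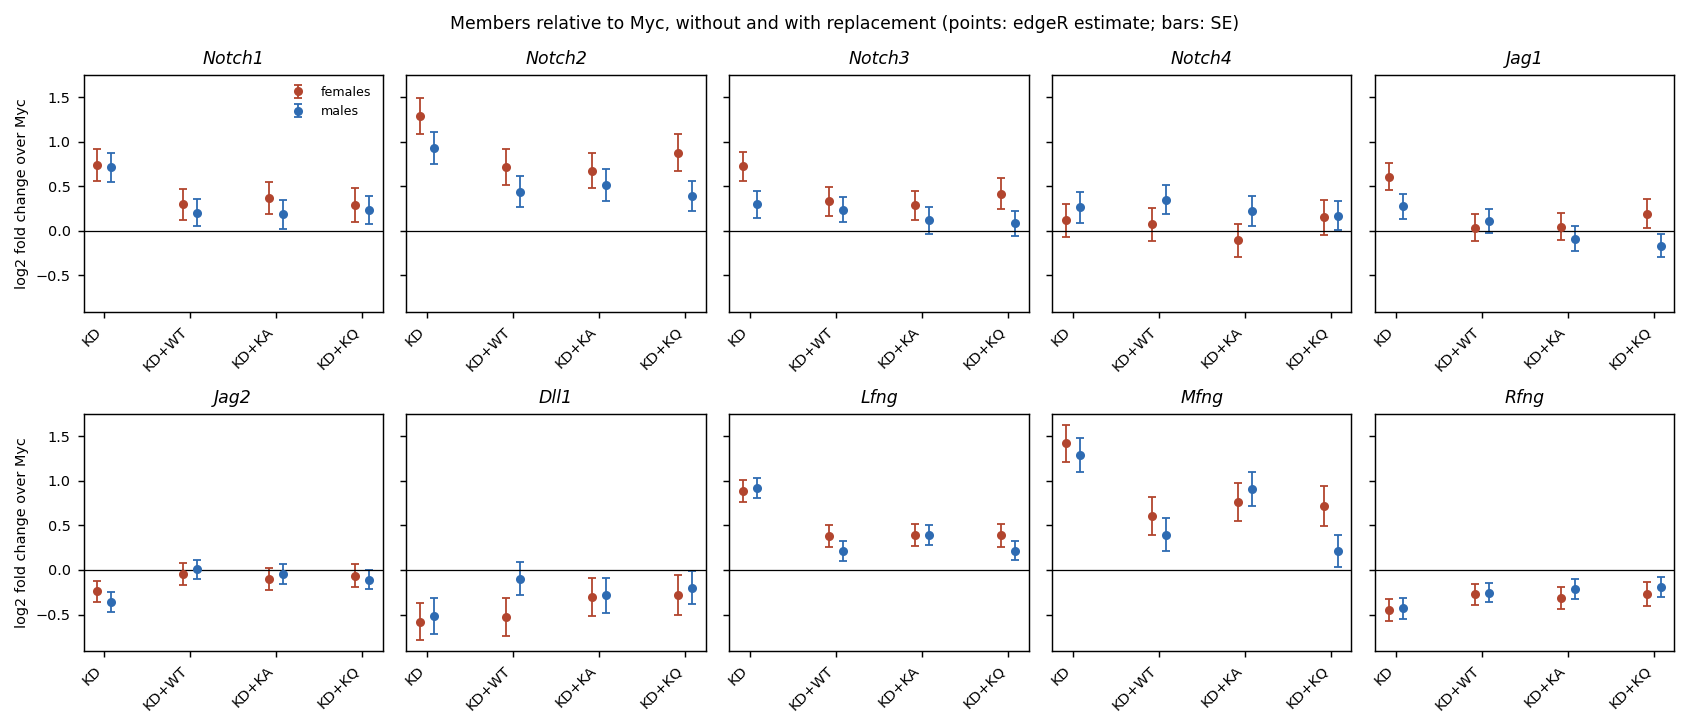
Log2 fold change over Myc for KD and the 3 replacement groups, 1 panel per gene on a shared axis, with bars of 1 SE, females in red and males in blue. For Lfng, Mfng, Notch1 and Notch2 the KD points are the highest, and Mfng in males stands at 0.91 with KA and 0.21 with KQ.

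The third comparison set the KA against the KQ form. Of the 10 genes 0 passed in either sex, and so did 0 of all genes tested in edgeR (0%), with 595 genes in females and 2993 in males at an unadjusted p under 0.05, while DESeq2 called 8 and 20 genes. Mfng was the member that stood farthest apart. The study itself singled it out from these mice, so its values here are a description. It was the only 1 of the 10 with an unadjusted p under 0.05 in males, and in females there were 0. All 4 male KD+KA mice (6.10, 4.21, 5.01 and 4.31 CPM) lay above all 5 male KD+KQ mice (2.94, 2.71, 2.97, 2.59 and 3.94 CPM), at a log2 difference of 0.69 (SE 0.18, 95% interval 0.34 to 1.05) and a 1.62-fold difference. The adjusted p over all genes was 0.326 in edgeR and 0.0473 in DESeq2. In females the means were 3.99 ± 0.516 CPM (SD, n = 4) with KA and 3.86 ± 0.812 (n = 3) with KQ, and the log2 fold change was 0.04 (95% interval -0.36 to 0.45). The difference between the sexes in this contrast was -0.65 (SE 0.27, 95% interval -1.19 to -0.11), with an adjusted p of 0.835.

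The other 9 genes had log2 fold changes of KA over KQ from -0.26 to 0.08 in females and from -0.09 to 0.18 in males. The widest 95% intervals were those of Dll1, from -0.45 to 0.41 in females and from -0.46 to 0.29 in males, so that differences of this size could have been missed. Against KD+WT, 0 of the 10 passed with KA or KQ in either sex in either tool, with 1 at an unadjusted p under 0.05 for each form in males and 0 in females, and 0 of all genes in edgeR (0%), with 1168 and 1439 genes (KA, females and males) and 754 and 1159 genes (KQ) at an unadjusted p under 0.05 and 4, 18, 10 and 10 genes called by DESeq2. Mfng in males with KA was again the farthest, 0.51 above KD+WT on the log2 scale (95% interval 0.15 to 0.86, adjusted p = 0.939), with all 4 KD+KA mice above the highest KD+WT mouse at 3.93 CPM.

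The rest of the pathway was described with a list of 52 genes in 8 roles, all of which were tested. In KD against Myc mice 11 were higher and 11 lower in females, and 11 higher and 11 lower in males, with a median log2 fold change of 0.037 and 0.041. That is 22 of 52 in each sex, beside 34.6% and 31.6% of all genes. The lists by role are short, and their counts below stand beside the same shares of all genes. These were 18.1% higher and 16.5% lower in females, and 17.2% and 14.4% in males. Counts such as 1 of 6 or 2 of 6 genes do not stand out from these shares.

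Some genes that act on the ligand in the sending cell were lower. Of 4 ubiquitin ligases for ligand endocytosis, 3 fell in females and 4 in males. Neurl1a went from 111 ± 12.4 to 63 ± 11.7 CPM in females and from 109 ± 12.5 to 64.6 ± 8.78 in males, with log2 fold changes of -0.82 (adjusted p = 1.66e-05) and -0.76 (adjusted p = 1.7e-05). Neurl1b fell by 0.88 and 0.72 and Mib2 fell by 0.40 and 0.47 on the log2 scale. Mib1, another of these ligases, was at -0.20 in females (adjusted p = 0.146, and 0.0425 without Myc mouse 31) and fell by 0.32 in males. Of 6 further ligands 1 fell in each sex, Dner, a neuronal ligand without the usual receptor-binding domain, by log2 fold changes of -0.51 (adjusted p = 0.000947) and -0.45 (adjusted p = 0.00188). The contactin Cntn1 was at -0.19 and -0.29, Dlk2 at -0.37 and -0.48 and Dlk1 at -1.54 and 0.78, and none of these passed. Dlk1 passed in females without Myc mouse 11 (adjusted p 0.0374) or 32 (0.0482), and Cntn1 in males without KD mouse 3 (0.016) or 42 (0.0484) or Myc mouse 22 (0.0438).

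Genes that act in the receiving cell went in both directions. Of 8 genes for receptor cleavage, 3 rose and 1 fell in females and 4 rose and 1 fell in males. Adam17, an ADAM protease, went from 18.7 ± 0.459 to 43.3 ± 7.74 CPM in females and from 17.4 ± 0.618 to 43 ± 6.84 in males, the log2 fold changes being 1.21 (SE 0.14, adjusted p = 6.64e-08) and 1.31 (SE 0.13, adjusted p = 6.97e-10). Ncstn, a subunit of gamma-secretase, rose by 0.28 and 0.17, and Psenen, another subunit, was at 0.16 in females (adjusted p = 0.263) and rose by 0.37 in males. Aph1b, also a subunit, fell by 0.63 and 0.66. The remaining rise was that of the protease Adam10 (0.33 in each sex), named after its values were seen. The male call of Ncstn was lost without Myc mouse 1 (adjusted p 0.0715) or 22 (0.0642) or KD mouse 4 (0.141). The 3 genes for receptor glycosylation and maturation (Pofut1, Furin and Poglut1) passed in neither sex, at log2 fold changes from 0.05 to 0.19 in females and from 0.04 to 0.17 in males, although Pofut1 passed in males without KD mouse 42 (adjusted p 0.0157).

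Of the 6 genes of the nuclear complex 2 rose in each sex. Rbpj, the DNA-binding protein of the pathway, went from 32.9 ± 5.06 to 59.4 ± 12.3 CPM in females and from 34 ± 2.4 to 65.2 ± 8.99 in males (log2 fold changes 0.85 and 0.94, adjusted p = 2.05e-06 and 3.74e-08), with every KD mouse above every Myc mouse. Kat2b, an acetyltransferase of the complex, rose by 0.85 and 0.74. Maml2 and Maml3, Mastermind coactivators, were at 0.21 and 0.46 in females and at 0.35 and 0.11 in males, and neither passed. In DESeq2, however, Maml2 passed in males (adjusted p = 0.0385) and Maml3 in females (0.0479, and 0.0338 without the mice above 1000 CPM of Ttr), and Maml2 passed in males also with DESeq2 size factors (0.0427), the stricter filter on low counts (0.0414) and the compared groups alone (0.00828). Without single mice, Maml2 passed in females (Myc mouse 32, adjusted p 0.0191) and males (KD mouse 42, 0.0475), and Maml3 in females (Myc mouse 11, 0.0258, or KD mouse 33, 0.0454). Of the 7 repressors that work with Rbpj, Tle2 fell by 0.98 and 1.13 and Tle3 rose by 0.49 and 0.48, while Cir1 fell by 0.32 in females and was at -0.12 in males (adjusted p = 0.181).

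Among 9 inhibitors and ubiquitin ligases of the receptor, 1 rose and 3 fell in each sex. Numbl, a relative of the Notch inhibitor Numb, fell by 0.31 (adjusted p = 0.0455) and 0.47 (adjusted p = 0.00115), and Dtx4, a Deltex ligase, rose by 0.24 and 0.18. Nrarp, a feedback inhibitor and itself a target of the pathway, fell by 0.67 in females (adjusted p = 0.0208) and was at -0.43 in males (adjusted p = 0.128). Dtx3 was at -0.20 in females (adjusted p = 0.121) and fell by 0.38 in males. The remaining falls, named after their values were seen, were Fbxw7 in females (-0.36) and Dtx1 in males (-0.25). Several of these calls were close to the threshold. In females that of Numbl was lost without Myc mouse 11 (adjusted p 0.14) or 31 (0.133) or KD mouse 13 (0.151), 14 (0.0906) or 34 (0.0626), and that of Nrarp without KD mouse 13 (0.0585) or 14 (0.0716) or Myc mouse 31 (0.138). That of Dtx4 was lost without Myc mouse 32 in females (0.0864), and in males without KD mouse 4 (0.134) or 42 (0.0531) or Myc mouse 23 (0.138) or 41 (0.0936).

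Of 9 target genes, 4 rose and 1 fell in females and 3 rose and 1 fell in males. The largest fall was that of Hes5, a transcriptional repressor of neural stem cells and astrocytes, from 4.63 ± 0.905 to 1.3 ± 0.189 CPM in females (log2 fold change -1.84, SE 0.34, adjusted p = 6.63e-05) and from 3.42 ± 0.615 to 1.55 ± 0.126 in males (-1.14, SE 0.32, adjusted p = 0.00587). Id3 and Id1, inhibitors of basic helix-loop-helix factors that are also targets of other pathways, rose by 2.00 and 0.97 in females and by 1.62 and 0.59 in males. Ccnd1, a cyclin of the cell cycle, rose by 0.92 and 0.95. The remaining rise was that of Hey2 in females (0.80), named after its values were seen. The male call of Id1 was lost without KD mouse 4 (adjusted p 0.0573).

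**Figure D5:**
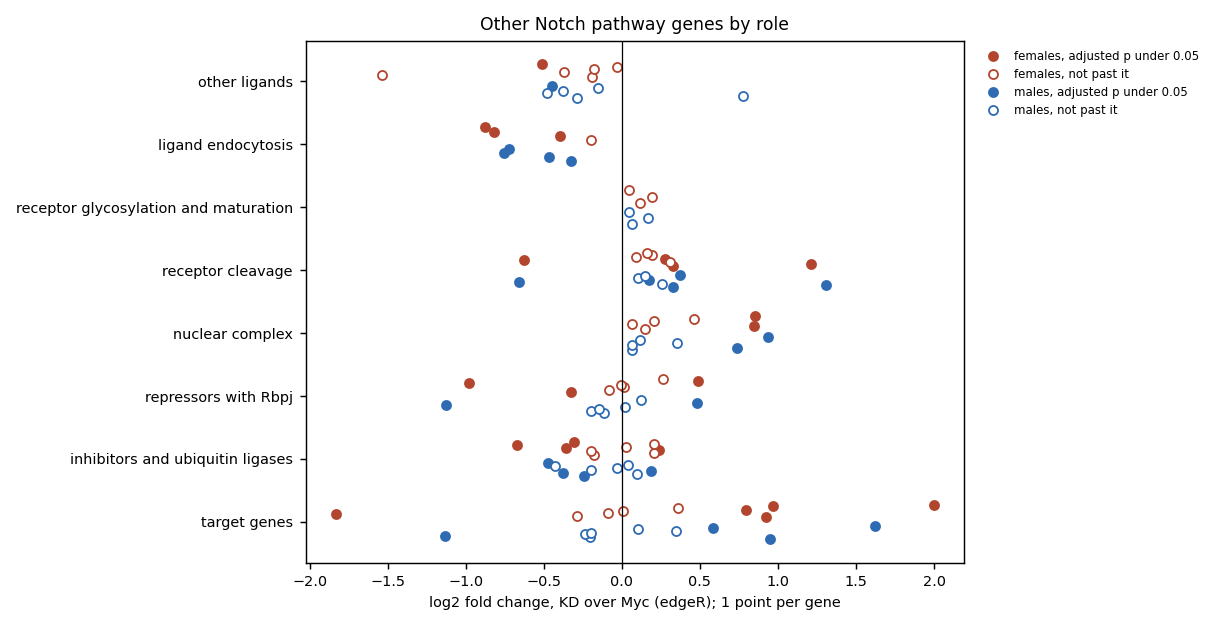
Log2 fold change of KD over Myc for the 52 other pathway genes, 1 point per gene and sex in a row per role, filled where the adjusted p was under 0.05. The row of ligand endocytosis lies wholly left of 0, that of the nuclear complex wholly right of 0, and the target genes spread from Hes5 at -1.84 to Id3 at 2.00 in females.

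In the replacement groups fewer genes of the list were called against Myc than in KD mice. Against KD, 4 of the 52 were higher and 8 lower with WT, 3 and 7 with KA and 4 and 6 with KQ in females, and 9 and 9, 7 and 7, and 7 and 12 in males, beside 14.5%, 15.3% and 13% of all genes in females and 19.5%, 15.8% and 21.4% in males. Against Myc the counts were 4 higher and 2 lower with WT, 3 and 3 with KA and 1 and 2 with KQ in females, and 1 and 2, 3 and 2, and 1 and 4 in males, beside 9.38%, 7.65% and 5.68% of all genes in females and 5.34%, 7.89% and 5.13% in males. KA against KQ gave 0 of 52 in each sex in edgeR, with 1 gene in females and 11 in males at an unadjusted p under 0.05. Of all 28449 genes tested, 595 in females and 2993 in males had such a p in that contrast.

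For each of the 10 genes, the genes whose level varied most alike were sought among 15937 genes with a mean of at least 1 CPM, by Pearson's r of the deviations of log2 CPM from the group means over the 40 mice. These are descriptions with no test, since all genes of a mouse share its library, its depth and its cell make-up. Rfng went most closely with Prrt1 (r = 0.905), a gene of synapses, and with Iqsec2 (0.866) and Fbxl16 (0.865). Notch2 went with Tshz1 (0.888), Hfe (0.887) and Plxnb2 (0.884), Jag2 with Tnk2 (0.857), Ppp1r37 (0.854) and Zfp523 (0.844), and Mfng with H3f3b (0.855), Hlx (0.818) and Gal3st4 (0.806). Notch3 went with Dock6 (0.811), Mlxipl (0.763) and Tmem150a (0.743), and Jag1 with Foxq1 (0.755), Ogn (0.751) and Slco1a4 (0.678), a transporter of the blood-brain barrier. Dll1 went with N4bp3 (0.754), Hes5 (0.733) and Hrk (0.702). The likeness was weaker for Notch1, with Crybg3 (0.710), Itga1 (0.702) and Pram1 (0.698), for Notch4, with Dhrs13 (0.681), Zfp580 (0.612) and Paqr5 (0.599), and for Lfng, with Trpv2 (0.674), Rfc4 (0.671) and Tmem219 (0.665).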

How the data were processed

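Alignment to GRCm39 was done by the authors with Rsubread 2.12.3 on paired-end reads, which they counted per gene with featureCounts to give the deposited raw counts for 40 mice. The annotation and strand setting are not given in the sources used here, so reads shared with overlapping genes cannot be set apart. A second deposited table, the same counts after DESeq2 normalization, was not used. Here counts of genes with a sum of at least 20 (28449 genes) were fitted in edgeR 4.0.16 (R 4.3.3) with TMM scaling, a mean per group and robust quasi-likelihood tests, and called at a Benjamini-Hochberg adjusted p under 0.05. Intervals are 95%, and SEs follow from the F statistic. The fit was also run on counts drawn independently per gene from its own model. That checks the code and cannot test how well the model suits these mice. The alternatives were DESeq2 1.42.0, DESeq2 size factors, other filters, no robust estimation, the range of sample numbers (1 to 20, 21 to 40, 41 to 46) as a covariate, the compared groups alone, leaving out mice above 1000 CPM of Ttr, and leaving out each mouse. Lowest and highest totals per library differ by less than 2 times, and low genes such as Mfng are the least precise. Replicates are mice by their sample numbers, and counts of any pair of mice in a group differed beyond sampling noise. All 10 genes were to be named; from each pathway role up to 4 with the smallest p in KD against Myc. A gene that this rule names is not reported here. The genes and lists were chosen with earlier results of these data known.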

Additional observations from a re-analysis of the deposited data

Results flagged for a closer look

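In 80 groups of 4 or 5 mice (10 genes in 8 groups), the distance of the highest or lowest mouse from the rest was tested with Dixon's criterion, and 4 groups passed it, where chance alone flags about 1 in 20. Female KD mouse 33 was high for Jag2, at 25.6 CPM beside 20.2 to 21.0 CPM in the other 3 mice, and low for Mfng, at 5.18 CPM beside 6.51 to 6.78 CPM. The same mouse carried 2654 CPM of Ttr. Male KD mouse 42 was high for Rfng, at 41.7 CPM beside 31.5 to 32.4 CPM, and male KD+KQ mouse 45 was high for Mfng, at 3.94 CPM beside 2.59 to 2.97 CPM.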

How the results depend on the processing

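Among the results of the 10 genes that passed under at least 1 setting, 497 values under other settings kept their direction and side of the threshold, 27 calls were lost and 28 gained. With 1 mouse left out 446 were kept, 75 lost and 19 gained, and 0 called values changed sign. In KD against Myc, Notch1, Notch2, Lfng, Mfng and Rfng in both sexes and Notch3 and Jag1 in females passed under all alternatives run. The call of Dll1 in males was also lost with the sample number range (0.0514) and, in both sexes, with the compared groups alone (0.0679 and 0.0737). The counts of genes called that moved by over 1.5 times are given here, and the cause was not tested. Smaller moves with 1 mouse left out were 7 to 9 in place of 8 and 5 to 8 in place of 7 (KD against Myc, females and males) and 3 to 6 in place of 4 (KD+WT against KD, females), where DESeq2 also gave 6. With the compared groups alone, the female count went from 4 to 2 (KD+WT against KD), 5 to 3 (KD+KA against KD), 2 to 0 (KD+KQ against KD), 2 to 1 (KD+WT against Myc), 3 to 1 (KD+KA against Myc) and 2 to 0 (KD+KQ against Myc), and the male count of KD+WT against Myc from 0 to 2. Without the mice above 1000 CPM of Ttr it went from 5 to 3 (KD+KA against KD, females) and from 2 to 0 for KD+WT and for KD+KQ against Myc in females. DESeq2 raised KD+KQ against KD in females and KD+KA against KD in males from 2 to 4, and KA against KQ in males from 0 to 1. No filter left 1 of 2 for KD+WT and for KD+KQ against Myc in females, and the sample number range gave 1 in place of 0 for KD+WT and for KD+KQ against Myc in males. Leaving out 1 mouse gave, in females, 2 to 5 (KD+KA against KD), 1 to 4 (KD+KQ against KD), 0 to 3 (KD+WT against Myc), 0 to 2 (KD+KA against Myc) and 0 to 2 (KD+KQ against Myc), and in males 3 to 5 (KD+WT against KD), 1 to 4 (KD+KA against KD), 2 to 7 (KD+KQ against KD) and 1 to 3 (KD+KA against Myc). Single calls gained in DESeq2 were Notch1 (adjusted p 0.0359 with WT, 0.0448 with KQ), Notch3 (0.0392 with WT) and Jag1 (0.0254 with KQ) against KD in females, Jag1 (0.0415) and Jag2 (0.0418) with KA against KD in males, and Mfng (0.0335 with WT) and Lfng (0.0422 with KQ) against Myc in females. Of the other pathway genes named, the female call of Numbl was lost under 9 of 15 alternatives and that of Nrarp under 3, and the male calls of Dtx4 and Ncstn under 7 and 5 of 16. Over all genes, DESeq2 called 2674 in place of 1615 (KD+KQ against Myc, females), 2288 in place of 1519 (KD+WT against Myc, males) and 86 in place of 13 (Myc females against males), and 10 in place of 0 for the sex difference of KA against KQ. The sample number range gave 2757 and 2280 in place of 1615 and 1460 (KD+KQ against Myc, females and males). Without the mice with much Ttr, females gave 1369 in place of 2669 (KD+WT against Myc) and 56 in place of 1615 (KD+KQ against Myc). The compared groups alone gave, in females, 2350 in place of 4339 and 325 in place of 3694 (KD+KA and KD+KQ against KD) and 1378 in place of 2177 and 77 in place of 1615 (against Myc), in males 2988 in place of 4494, 3786 in place of 6087 (KD+KA and KD+KQ against KD), 2986 in place of 1519 and 3590 in place of 2244 (KD+WT and KD+KA against Myc), and 6 in place of 13 between Myc females and males. No paired analysis was possible because the groups share no sample numbers.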
